A study of Mus musculus with 11 samples.

Results

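OTX2 and POU3F1 are homeodomain TFs of the epiblast and early neural plate, and their binding was compared here in mouse EpiSCs (epiblast stem cells) deprived of activin. The comparison used 2 of the 11 samples of the series, 1 peak list for each TF, taken on chromosomes 1 to 19 and X. There were 113831 OTX2 peaks and 101920 POU3F1 peaks, and a peak was called shared if it had at least 1 bp in common with a peak of the other list. By this rule 13089 OTX2 peaks and 13106 POU3F1 peaks were shared, and they met in 13807 stretches covered by both lists, called shared sites below.

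Each TF was expressed from a transiently transfected pCAGGS vector with a C-terminal BLRP tag that BirA biotinylates, and chromatin was pulled down with streptavidin from 129/Sv EpiSCs kept without feeders in medium with Fgf2 at 10 ng/ml. In the activin-free groups (EpiSCA_OTX2 and EpiSCA_POU3F1) activin was left out for the last 18 h, whereas EpiSC_OTX2 and EpiSC_POU3F1, used for comparison, had activin at 20 ng/ml. The binding is therefore that of tagged protein expressed from a vector. All lists were called against the same input, which came from the culture with activin, so the activin-free lists have no input of their own culture. Each TF was profiled once in each culture, so no value has a replicate error. Read depth is unknown, and differences between cultures cannot be told apart from differences between libraries.

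OTX2 binds DNA through a paired-type homeodomain that prefers the sequence TAATCC, written on the other strand as GGATTA, and it is required for the anterior neural plate and the forebrain. POU3F1 (also called OCT6) carries a POU-specific domain and a POU homeodomain, which together read the octamer ATGCAAAT, and it promotes neural fates of the epiblast. POU5F1, the pluripotency TF of the same family, reads a closely related sequence.

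The sequences of 4 shared sites show how both recognition sequences can lie in 1 stretch bound by both TFs. They come from the 10 sites with the highest score ranks that held GGATTA and an octamer (ATGCAAAT or ATGCATAT) within 100 bp of the midpoint of the overlap. Capitals mark GGATTA or an octamer on either strand, so that TAATCC is GGATTA, ATTTGCAT is ATGCAAAT and ATATGCAT is ATGCATAT on the minus strand. The plus strand of mm9 is given.
Elp4 intron, chr2:105674001-105674160: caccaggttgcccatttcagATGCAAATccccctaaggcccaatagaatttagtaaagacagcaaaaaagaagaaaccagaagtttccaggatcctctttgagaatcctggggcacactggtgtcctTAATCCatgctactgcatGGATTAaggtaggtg
Rnf216 intron, chr5:143810253-143810323: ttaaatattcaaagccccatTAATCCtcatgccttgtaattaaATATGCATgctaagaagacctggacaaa
Dlg2 intron, chr7:98153533-98153639: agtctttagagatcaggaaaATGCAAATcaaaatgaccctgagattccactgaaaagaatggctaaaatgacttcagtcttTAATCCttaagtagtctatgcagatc
Gm4737 intergenic, chr16:46229054-46229098: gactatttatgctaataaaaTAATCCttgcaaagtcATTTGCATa

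The site nearest to Elp4 lay in an intron, 32.1 kb from the nearest protein-coding TSS, where an OTX2 peak from 105673270 to 105674852 with a score of 764 was wholly inside a POU3F1 peak of score 1913. The score is −10 log10 of the MACS p-value, and 50 was the lowest in both lists. At Rnf216, which encodes a ubiquitin ligase, the OTX2 peak scored 1056 and the POU3F1 peak 1840. At Dlg2, a synaptic scaffold gene, the scores were 311 for OTX2 and 2133 for POU3F1. At the intergenic site near Gm4737 they were 295 and 1427. All of these sites also overlapped peaks of both TFs with activin and a POU5F1 peak without activin.

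Such sites were few. Of the 13807 shared sites, 137 (0.992%, 95% Wilson interval 0.840 to 1.17) held both sequences in the 200 bp at the midpoint of the overlap, compared with 0.279% of windows 1000 bp away. Each sequence by itself was also more frequent in shared sites than in those windows. GGATTA was in 15.1% of shared sites (windows 8.57%) and an octamer in 6.79% (windows 3.59%). Whether both occurred together more often than these separate shares would give was not tested. Neither sequence was found in 79.1% of shared sites. Among 123 pairs of GGATTA and ATGCAAAT, 62 were on the same strand and 61 on opposite strands. The gaps between them were spread widely, with 49 pairs 80 to 199 bp apart and no gap occurring more than 4 times. Intervals here and below cover counting error only.

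The overlap of the lists was larger than at random positions. Of the OTX2 peaks, 11.5% (11.3 to 11.7) overlapped a POU3F1 peak, and 12.9% (12.7 to 13.1) of POU3F1 peaks overlapped an OTX2 peak. When the POU3F1 list was rotated along each chromosome 1000 times, on average 10804 OTX2 peaks were hit (SD 239, from 9959 to 11489). The observed number was 1.21 times as high. Rotated positions included unsequenced bases (N) of mm9, and with rotation along the other bases alone the ratio was 1.18. By chromosome, with all bases included, the ratio for OTX2 peaks was lowest on chromosome 15, at 0.999. When each POU3F1 peak was instead placed at random within its own segment of 1 Mb, 8675 OTX2 peaks were hit (SD 82.8, from 8431 to 8912) and the ratio was 1.51. Both differences had an adjusted p of 0.002 (two-sided permutation test, Benjamini-Hochberg over 12 comparisons), the smallest value that 1000 draws can give. These tests compare 2 lists and not conditions.

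**Figure D1:**
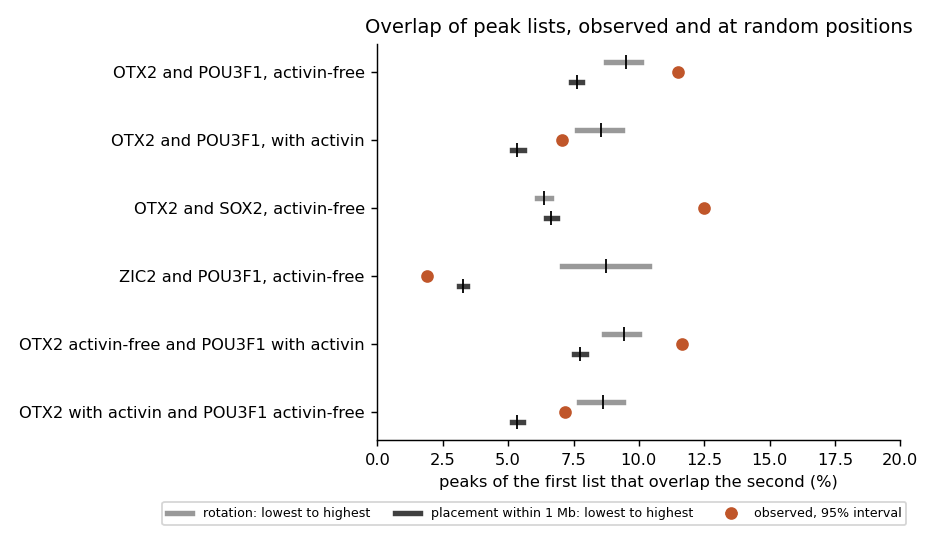
Percentage of peaks of the first list that overlapped the second, for 6 pairs of lists. Points are observed values, grey bars run from the lowest to the highest of 1000 rotations (light) or placements within 1 Mb (dark), and ticks are their means. The activin-free OTX2 and POU3F1 lists overlapped at 11.5%, above both ranges.

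Other pairs were run for comparison, and the differences between their ratios were not tested. With activin, 7276 OTX2 peaks (7.06%) overlapped a POU3F1 peak, which was 0.825 times the rotations but 1.32 times the placements within segments. Pairing the activin-free OTX2 list with the POU3F1 list made with activin gave 1.23 and 1.51, and the converse pairing gave 0.830 and 1.34, so the ratios moved with the OTX2 list and hardly with the POU3F1 list. Activin-free OTX2 and SOX2 gave 1.97 and 1.89. ZIC2 and POU3F1 overlapped less than at random under both schemes (0.216 and 0.577). All had an adjusted p of 0.002 (permutation test). The OTX2 lists also differed in peak width, with medians of 1034 bp without activin and 803 bp with it. The POU3F1 medians were 1230 and 1034 bp. For activin-free OTX2 peaks the ratios were 0.74 and 0.953 under 600 bp, and 1.495 and 2.17 at 2000 bp and over. For activin-free POU3F1 peaks they fell, from 1.65 and 1.71 to 1.06 and 1.37. Whether peak width accounts for the difference between the OTX2 lists was not tested.

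POU3F1 midpoints were concentrated at OTX2 midpoints. The central bin of 100 bp held 864 POU3F1 midpoints, 2.07 times (exact Poisson interval 1.93 to 2.21) the mean of 418 in bins 4000 to 5000 bp away. The ratio was 1.51 at 300 bp toward lower coordinates and 1.49 at 300 bp toward higher coordinates, and 1.03 and 1.02 at 800 bp. The overlap was often partial. The median shared site was 757 bp wide, 40.02% of sites covered at least 50% of both peaks, and 5.87% were narrower than 100 bp.

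**Figure D2:**
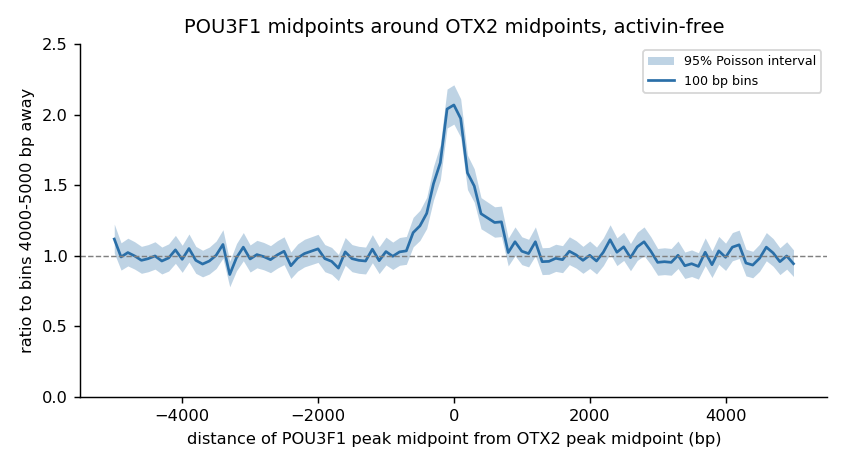
Number of POU3F1 peak midpoints in bins of 100 bp around OTX2 peak midpoints, divided by the mean of bins 4000 to 5000 bp away (dashed line at 1), with exact 95% Poisson intervals shaded. The central bin reached 2.07, and the ratio was near 1 at 800 bp.

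The lists as wholes were concentrated in different segments of the genome. Across 2581 segments of 1 Mb, OTX2 density (summed peak width) rose with segment GC content (Spearman's rho 0.57) and POU3F1 density fell with it (rho −0.79), and the densities of both TFs had a rho of −0.27. With GC content held constant, the partial rho was 0.36. These are descriptions of segments that share base composition and the input. In the 20% of segments poorest in GC the mean density was 0.383 of the genome mean for OTX2 and 2.58 for POU3F1. In the 20% richest in GC it was 1.29 and 0.103. Shared sites were most numerous in the segments next to the poorest, with 4068, compared with 3466 in the poorest and 883 in the richest.

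**Figure D3:**
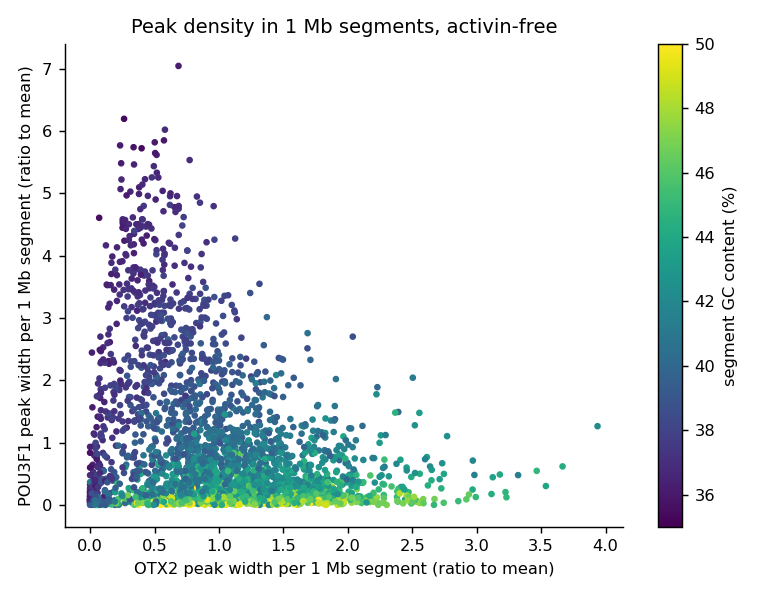
Peak width per 1 Mb segment, relative to the mean of each list, for OTX2 (x) and POU3F1 (y) in 2581 segments coloured by GC content. GC-poor segments extend along the POU3F1 axis and GC-rich segments along the OTX2 axis (rho −0.27).

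The shared fraction followed the partner's density. In the GC-poorest segments 34.6% of 9525 OTX2 peaks were shared, but only 7.16% of 46795 POU3F1 peaks. In the GC-richest segments it was 2.90% of 28644 OTX2 peaks and 29.4% of 2830 POU3F1 peaks. Relative to placement within segments the ratio for OTX2 peaks was 1.35 in the poorest and 2.21 in the richest, and for POU3F1 peaks 1.21 and 2.29, so the excess was above 1 in every GC class and larger where GC content was high.

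**Figure D4:**
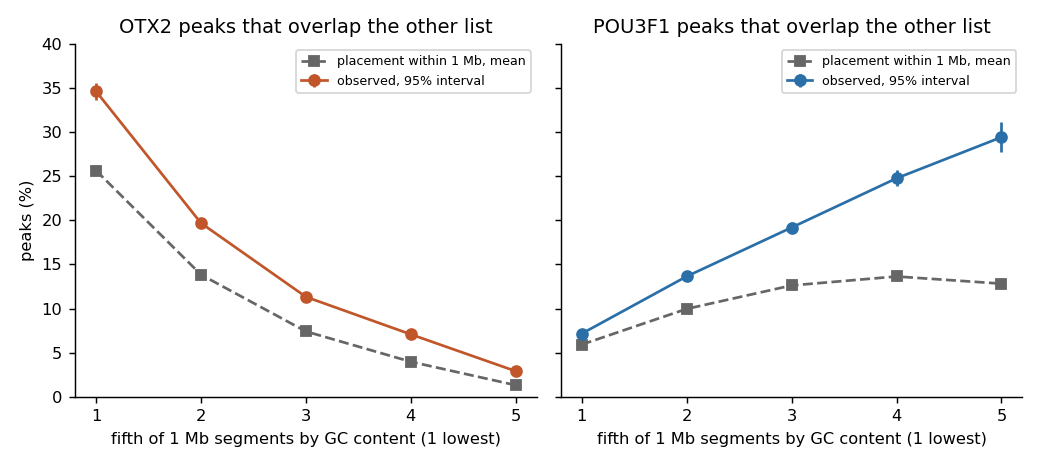
Percentage of OTX2 peaks (left) and POU3F1 peaks (right) that overlapped the other list, in 5 classes of 1 Mb segments by GC content, with 95% Wilson intervals, beside the mean of 1000 placements within segments. Observed values exceeded the placements in all classes, from 34.6% to 2.90% for OTX2 and from 7.16% to 29.4% for POU3F1.

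Shared peaks were intermediate in base composition. The 200 bp at the midpoint had a mean GC content of 41.8% (SD 5.77 over peaks) in unshared and 37.5% (SD 5.65) in shared OTX2 peaks. In POU3F1 peaks it was 31.7% (SD 5.61) in unshared and 33.5% (SD 6.06) in shared ones. The difference between shared and unshared peaks was −4.37 percentage points for OTX2 and 1.83 for POU3F1. Within classes of segment GC the difference ranged from −2.18 to −5.47 percentage points for OTX2 and from 1.86 to 0.241 for POU3F1.

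Distances to TSSs showed the same order. Within 50 kb of a TSS of any transcript lay 76.7% of unshared and 61.5% of shared OTX2 peaks, 61.1% of shared POU3F1 peaks and 45.2% of unshared POU3F1 peaks. The median distance was 15.2 kb, 31.2 kb, 31.6 kb and 60.2 kb, respectively. The difference was smaller among segments of similar GC content. Within GC classes shared and unshared OTX2 peaks differed by −0.421 to −4.86 percentage points, against −15.2 over all peaks. For POU3F1 the difference within classes was 3.84 to 12.9 percentage points, against 15.9 over all peaks. Shared sites lay within 1 kb of a TSS in 3.87% of cases, in introns in 49.3% and between genes in 44.1%.

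**Figure D5:**
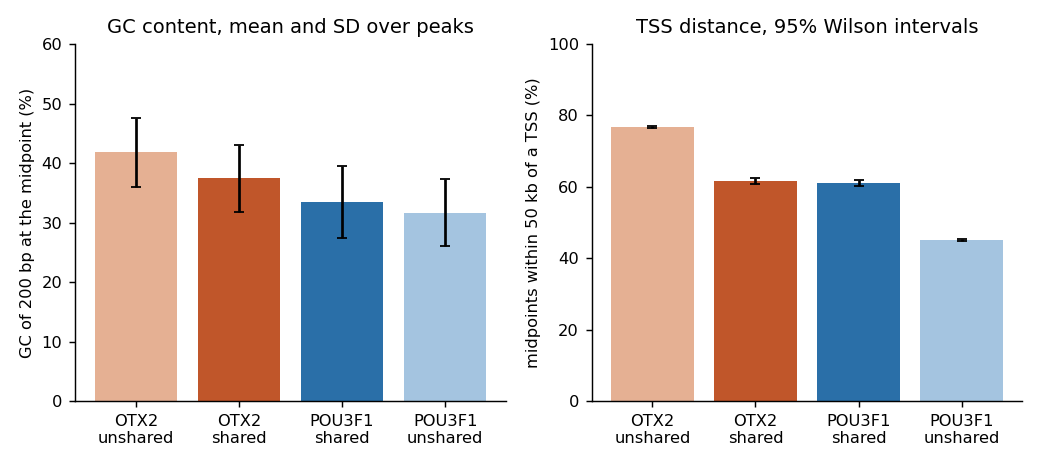
Mean GC content with SD over peaks (left) and percentage of midpoints within 50 kb of a TSS with 95% Wilson intervals (right) in unshared and shared peaks. Shared peaks of both TFs sit between unshared OTX2 peaks (41.8% GC, 76.7% within 50 kb) and unshared POU3F1 peaks (31.7%, 45.2%).

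Recognition sequences were present in shared and unshared peaks alike. GGATTA occurred in 19.3% of shared and 22.0% of unshared OTX2 peaks within 100 bp of the midpoint, compared with 8.02% and 8.53% in windows 1000 bp away. In POU3F1 peaks it was near its flanking level, at 10.9% of shared peaks (flanks 9.66%) and 8.23% of unshared peaks (flanks 7.73%). An octamer occurred in 8.64% of shared and 9.40% of unshared POU3F1 peaks, compared with 3.45% and 3.51% in flanks. Shared OTX2 peaks held an octamer in 5.26% of cases (flanks 3.97%) and unshared ones in 2.62% (flanks 2.53%). ATGCAAAT alone was 1.97 times its flanking level in shared and 1.34 times in unshared OTX2 peaks, whereas ATGCATAT was below its flanking level in both (0.693 and 0.642 times).

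Of all words of 6 bases, CTAATC and GGATTA had the highest ratios to flanks in OTX2 peaks, shared (2.51 and 2.40) and unshared (2.78 and 2.58). In POU3F1 peaks the words were TAATTA (2.12 in shared, 2.26 in unshared) and ATTAAT (2.07 and 2.13). Words were counted on both strands, they overlap one another, and only those in at least 1% of flanks were ranked.

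Scores of shared peaks were somewhat higher. The median score was 125 in shared and 114 in unshared OTX2 peaks, and 270 and 206 in POU3F1 peaks. Shared peaks were also wider, with medians of 1097 and 1026 bp for OTX2 and of 1316 and 1219 bp for POU3F1. Score and width go together in these lists. Among OTX2 peaks 600 to 1000 bp wide the shared fraction was 10.6% in the lowest of 6 score classes and 5.37% in the highest. The ratio to placement within segments was 1.45 and 0.983 in these 2 classes. Over OTX2 peaks of all widths this ratio was 1.43 in the lowest class and 1.80 in the highest. Among POU3F1 peaks 600 to 1000 bp wide the shared fraction ran the other way, from 10.7% in the lowest class to 15.5% and 15.8% in the fourth and the fifth. The highest class had only 25 peaks, of which 3 were shared.

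POU5F1, which reads a sequence like that of POU3F1, overlapped 53.3% of shared but 6.47% of unshared OTX2 peaks in activin-free culture. It overlapped 57.3% of shared and 54.2% of unshared POU3F1 peaks. SOX2 overlapped 23.5% of shared and 11.1% of unshared OTX2 peaks, and 24.5% of shared and 12.1% of unshared POU3F1 peaks. ZIC2 overlapped 6.30% of shared and 12.8% of unshared OTX2 peaks, but 4.98% of shared and 1.59% of unshared POU3F1 peaks. Of the shared sites, 5490 (39.8%) had no other TF, 5282 (38.3%) had POU5F1 alone and 1428 (10.3%) had SOX2 and POU5F1.

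The POU3F1 side of shared sites was found again with activin more often than the OTX2 side. Of 13807 shared sites, 83.9% overlapped a POU3F1 peak and 48.5% an OTX2 peak of the culture with activin, and 40.6% overlapped both. The 5972 sites with a POU3F1 peak only had a median activin-free OTX2 score of 85.6, compared with 231 for the 5607 sites with both. Of unshared OTX2 peaks 69.2% overlapped an OTX2 peak with activin, and of shared OTX2 peaks 54.0%. For POU3F1 peaks and the POU3F1 list with activin it was 86.5% of unshared and 88.5% of shared ones. The high POU3F1 value was therefore not particular to shared sites.

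Shared sites were assigned to the nearest protein-coding TSS of GENCODE, and 4413 of 22342 genes (19.8%) received 1 or more. The median distance was 59.96 kb. Genes with a wide territory, meaning the bases closer to their TSSs than to those of other genes, received more sites: 1.97% of the genes with the smallest territories (lowest 20%) and 56.9% of those with the largest had a shared site. There were 3331 genes with peaks of both TFs but no shared site.

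The genes with the most shared sites mostly had wide territories. Odz2 (ENSMUSG00000049336.9), a teneurin, had 44 shared sites in a territory of 2502 kb, Magi2, a synaptic scaffold, had 37 and Lrp1b, a lipoprotein receptor family member, had 35. Ptprd, a receptor phosphatase of synapses, also had 35, and Dlg2 and Nrxn3 (a neurexin) had 33 each. Mat2b had 30, Pcdh7 29 and Trps1 27. Epha7, Kcnd2, Lphn3, Lsamp, Msl3l2 and Nova1 had 26 each, and Erbb4, Robo1 and Zfpm2 had 25 each. Zcchc7 stood apart from these for its density, with 31 shared sites in 219 kb, or 142 per Mb, compared with 5.23 per Mb over all genes and 17.6 at Odz2.

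Among genes with no shared site, those with the most OTX2 peaks were Cdk5rap2 (46), Chd6 (44), Rbfox2 (38), Arhgap26 (37) and Gm2058 (35). Those with the most POU3F1 peaks were Pcdh11x (156), Cadm2 (149), Ctag2 (80), Gm4340 (80) and Mdga2 (77). The GENCODE entry counted as Mdga2 (ENSMUSG00000079510.2) is only 0.423 kb long. Its counts are those of the territory of this entry and may not cover the whole gene.

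Of the 20 epiblast and pluripotency regulators, 8 had a shared site (40%, counting interval 21.9 to 61.3%), compared with 19.8% of all genes. Their median territory was 66.0 kb, against 46.4 kb over all genes. Lin28b, an RNA-binding protein that blocks let-7 maturation, had 8 shared sites in 129 kb, and Otx2 had 6. Pou3f1 had no shared site, and the only POU3F1 peak assigned to it lay over its coding exon, where the vector carries the same sequence. Both shared sites of Zic2 and 2 of those at Otx2 lay within 500 bp of exons of these transfected genes. Vector DNA can be carried over for the TF profiled in a sample, here for the OTX2 peaks at Otx2. The source of the POU3F1 peaks there and of the peaks at Zic2 was not tested. Without these 4 shared sites 7 of 20 genes had a shared site. No interval was computed for this lower share, so its difference from all genes was not assessed.

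Among anterior neural plate and forebrain regulators, 9 of 23 had a shared site (39.1%, counting interval 22.2 to 59.2%), compared with 19.8% of all genes. Their median territory was 244 kb, against 46.4 kb over all genes. Of the 20% of genes with the largest territories (median 263 kb), 56.9% had a shared site. Nr2f1, an orphan nuclear receptor, had 19 in a territory of 1589 kb, Sp8 had 8 and Otx1 had 7. Emx2 and En1 had peaks of both TFs but no shared site, En1 with 17 OTX2 and 2 POU3F1 peaks. Of 20 primitive streak and endoderm regulators, 3 had a shared site (Gata6 with 2, Evx1 and Foxa2 with 1 each), and the counting interval of this share, 5.24 to 36.0%, included the 19.8% of all genes. Eomes, with 14 OTX2 and 2 POU3F1 peaks, had none.

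Of 19 genes of the Nodal and activin pathway, 6 had a shared site. Acvr2a, an activin receptor, had 18 and Inhba, the activin subunit gene, had 3. In the FGF pathway it was 7 of 19, with 12 at Spred1, an inhibitor of the pathway, 9 at Fgf10 and 2 at Fgf5. In the Wnt pathway it was 7 of 24, with 10 at Rspo3, 8 at Dkk1 and 3 at Fzd5. The counting intervals of the Nodal and activin list (15.4 to 54.0%) and the Wnt list (14.9 to 49.2%) included the 19.8% of all genes, and that of the FGF list (19.1 to 59.0%) did too. The median territory of the Wnt list was 198 kb. Of 25 synaptic adhesion and guidance genes 22 had a shared site, with a median of 13 and a median territory of 1752 kb. The share over the 20% of genes with the largest territories was 56.9%, but their median territory was only 263 kb. Of 26 ribosomal protein genes, with a median territory of 14.6 kb, only Rps23 had any (2). Shared sites per Mb of territory were 10.2 in the FGF list, 9.21 in the epiblast list, 8.52 in the synaptic list, 7.15 in the forebrain list, 5.96 in the Nodal and activin list, 4.62 in the Wnt list, 3.09 in the ribosomal list and 1.495 in the streak and endoderm list, beside 5.23 over all genes. The 29 shared sites of the epiblast list include the 4 near exons of Otx2 and Zic2, so its place in this order rests partly on them.

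At Otx2 (ENSMUSG00000021848.9, chromosome 14 from 49277354 to 49287319, minus strand) 4 OTX2 peaks covered 100% of the 891 coding bases, with a highest score of 3100. In the POU3F1 list 2 peaks covered 69.4% of them, with a highest score of 339. Outside the gene, a POU3F1 peak from 49359124 to 49361333 of score 614 overlapped 2 OTX2 peaks of scores 111 and 365, with shared sites 72.1 and 73.3 kb from the TSS. At Pou3f1 (ENSMUSG00000078236.3) a POU3F1 peak of score 3100 covered 100% of the 1401 coding bases, and no OTX2 peak lay over the gene.

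Shared sites at Fgf5, a marker of the postimplantation epiblast, lay 23.2 and 29.4 kb from the TSS. The nearer had an OTX2 peak of score 261 and a POU3F1 peak of score 943, and the farther had scores of 530 and 181.

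The segment with the most shared sites, 35, was on chromosome 4 from 44000001 to 45000000 and contained 91 OTX2 and 44 POU3F1 peaks. It included Zcchc7. Activin-free peak numbers there were 2.06 times the segment mean for OTX2, 1.11 for POU3F1, 2.30 for ZIC2, 1.38 for SOX2 and 1.10 for POU5F1. With activin they were 2.25 for OTX2 and 1.01 for POU3F1. The next segments by shared sites were on chromosome 3 from 86000001 (33 sites), chromosome 11 from 86000001 (33), chromosome 2 from 73000001 (31) and chromosome 1 from 68000001 (28). The last of these overlapped Erbb4, a neuregulin receptor gene, and had 201 POU3F1 but 34 OTX2 peaks, the largest excess of POU3F1 density of all segments (7.05 times the mean, against 0.686 for OTX2). Other segments with a POU3F1 excess were on chromosome X from 84000001 and chromosome 15 from 16000001, with GC contents of 35.4 and 36.2%. The largest OTX2 excess was on chromosome 4 from 116000001, with 127 OTX2 and 11 POU3F1 peaks in a segment of 26 genes, followed by chromosome 9 from 65000001 and chromosome 18 from 35000001.

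Shared sites on chromosome 18 and near exons of the genes of the transfected TFs were not ranked, which left 13312 ranked sites. This rule was set with earlier results of these data known. Chromosome 18 was kept in the other results, so the ranking does not cover all sites reported above. The ranked sites with the highest score ranks in both lists carried few of the sequences searched for. Of the 10 highest, 1 held GGATTA and none an octamer within 100 bp of the midpoint, whereas all 10 overlapped peaks of both TFs with activin. The highest, on chromosome 17 from 4626054 to 4626873, was 368 kb from the nearest protein-coding TSS, that of Arid1b, and scored 3059 for OTX2 and 3100 for POU3F1. It also overlapped ZIC2, SOX2 and POU5F1 peaks. The next lay in an intron of Ankrd17, on chromosome 5 from 90766275 to 90770811, with scores of 1710 and 3100. A score of 3100 was given to 965 POU3F1 peaks and to 7 OTX2 peaks, so ranks at the top of the POU3F1 list are tied.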

How the data were processed

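ChIP-seq of tagged OTX2 and POU3F1 was compared in activin-free EpiSCs, 1 sample each. Bowtie2 alignment to mm9 and peak calling by MACS against input were done by the authors, and the deposited score of each peak is −10 log10 of its p-value. Peaks outside chromosomes 1 to 19 and X (210 of OTX2, 69 of POU3F1) were left out, and reads were not analysed here. Members and gene lists were chosen with earlier results of these data known.

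Overlap of at least 1 bp was compared with 1000 rotations and 1000 placements within 1 Mb (two-sided permutation tests). GC content and sequences came from mm9, and TSSs and genes from GENCODE vM1 (95414 transcripts, 22342 protein-coding genes). Sox1, Fgfr1 and Ptprd did not match 1 gene each and were left out of the gene lists. Named genes were the 20 with most shared sites, the 5 with most peaks of either TF but no shared site, leading list members, top sites and segments, and Otx2 and Pou3f1, of which some genes are not reported here. On simulated lists with 20% planted overlap 18.5% was recovered above placement within segments. Of 40 pairs with a rotated POU3F1 list, 1 had a p under 0.05 (permutation test against rotation). Those lists were drawn as the random positions of the test are, so this checks the computation only. Placement was not checked in this way. Alternatives covered score, width, overlap, segments, windows and TSS sets. Python 3.11.15, numpy 2.4.6, scipy 1.17.1 and matplotlib 3.10.9 were used.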

Additional observations from a re-analysis of the deposited data

How the results depend on the processing

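Both overlap ratios stayed above 1 with a p of 0.002 (permutation test) under every alternative run, from 1.16 to 1.87 against rotation and from 1.34 to 2.22 against placement. The share of OTX2 peaks that were shared, and that of POU3F1 peaks, moved to 9.85% and 8.38% with a score of at least 100, to 7.21% and 7.14% for the 50000 highest-scoring peaks, to 2.501% and 3.96% for peaks under 1000 bp, to 4.85% and 5.42% with reciprocal overlap of 50%, and to 2.85% and 3.18% for 200 bp around midpoints. The POU3F1 share was 13.1% after merging and 13.4% on autosomes. Fewer or narrower peaks leave less to overlap.

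With a score of at least 100 the central midpoint ratio was 2.33 and the TSS difference of POU3F1 peaks 17.9 percentage points. GC differences were −4.97 (whole peak) and −5.01 (1000 bp) for OTX2, and 1.53 and 1.49 for POU3F1. TSS differences were −19.6 and 17.8 for protein-coding transcripts, −21.0 for OTX2 with 1 TSS per gene, and −9.60 and 6.55 within 5 kb. Reciprocal overlap left 2912 genes. Differences in GGATTA were −1.41 (50 bp) and −3.54 (250 bp), and that in the octamer −0.169 (50 bp), with an interval from −0.559 to 0.221. The cause was not tested. No result changed direction.

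No paired analysis was possible because each TF has 1 sample in each culture. Without replicates or reads, intervals cover counting error only.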
